A study of Manis javanica with 3 samples.

Results

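The pepsinogen and gastricsin family comprises the genes of *Manis javanica* whose entry in the NR protein database contained the word pepsin, gastricsin or chymosin. Of the 24220 genes in the expression files, 7 met this rule, and 5 of the 7 had reads in at least 1 library. The tissues sequenced were small intestine, liver and salivary glands, all taken from an adult female Malayan pangolin, a toothless mammal that feeds on ants and termites. The pangolin came from the wild, its tissues were taken after a natural death in rescue care, and no treatment was compared. All 3 libraries came from this animal, with 1 library per tissue, so no value below has a replicate and no difference between tissues could be tested. The intervals given cover counting error only.

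Pepsinogens are inactive precursors of aspartic proteases. In mammals they are made chiefly by the chief cells of the stomach glands, stored in granules and cut to the active pepsins in the acid that parietal cells secrete. Pepsin A is the principal protein-digesting enzyme of the adult stomach, gastricsin (pepsin C) is its close relative, and chymosin and pepsin F are best known from the stomach of young animals.

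Reads on genes numbered 10158924 for small intestine, 8318686 for salivary glands and 14568778 for liver. Levels are given as FPKM, the fragments of a gene divided by its length and by the depth of its library. The library labelled small intestine was checked against its markers. All 5 genes found by symbol from the list of gastric mucus and surface cell markers exceeded an FPKM of 1 there, from 23.2 to 3223. They include a gene that shares the symbol of the listed VSIG1 (gene19846), picked out with its values known. Matched by product name, all 9 genes found exceeded an FPKM of 1, from 14.8 to 3223. Of the 22 genes found by symbol from the enterocyte list, 8 exceeded an FPKM of 1 and 8 had 0 reads. The highest of them in any library were a galectin-7 gene that shares the symbol of galectin-4 (gene16692, 45.9 in the small intestine) and a maltase-glucoamylase-like gene (gene10946, 0.0682 in the small intestine and 114 in the liver). Matched by product name, 13 enterocyte genes were found, of which 4 had 0 reads. Villin-1, which builds brush border microvilli, was at 24 in the small intestine, 25.7 in the salivary glands and 21.2 in the liver. SLC5A1 (a glucose transporter) was at 1.94 and galectin-4 at 1.2, and the other 10 were at 0.623 or less, among them the fatty acid carrier FABP2 and lactase (LCT) at 0 and sucrase-isomaltase at 0.0421. Of the 6 with enough reads, 4 were higher and 1 lower in the small intestine than in the salivary glands, and 3 were higher and 2 lower than in the liver. SLC5A1 and the peptide transporter SLC15A1, at 0.623, were among those higher in both comparisons. The product-name matches and the enterocyte genes named from them were chosen after the data were seen. The part of these markers in the family's levels was not tested. In liver, all 11 hepatocyte genes exceeded an FPKM of 1, with the fibrinogen chains FGB and FGA highest at 12822 and 9658. Of 7 salivary gland genes, 2 exceeded this level in each of the 3 libraries. The water channel AQP5 was at 94.3 in the salivary glands, 2.29 in the small intestine and 24.7 in the liver, and the secreted protease KLK1 was at 2.27, 1.71 and 2.83 in that order. In bulk tissue, fewer cells of a type and less RNA per cell cannot be told apart.

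Pepsin A was the most abundant member. Its gene, gene4646, lies on the plus strand of scaffold NW_016529888.1 from base 157036 to 165876 and has a listed transcript length of 1372 bases. It had 1005640 small intestine reads, 949 salivary gland reads and 0 liver reads. The deposited FPKM was 94138 (95% Poisson interval 93954 to 94322) for small intestine, 71.7 (67.2 to 76.5) for salivary glands and 0 for liver. The small intestine library was therefore far above the others, and the liver library held no read of this gene. Of all gene reads from small intestine, 9.9% belonged to pepsin A alone (95% Wilson interval 9.88% to 9.92%). It ranked 2 of 24220 genes there by FPKM and by read count, and 692 by FPKM in the salivary glands.

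Gastricsin, gene7091, also called PGC (NW_016531604.1, bases 50155 to 57856, plus strand, 1384 bases of transcript), was the next member by reads. It had 104330 reads in the small intestine, 91 in the salivary glands and 0 in the liver. Its FPKM was 9427 (9370 to 9485), 6.48 (5.22 to 7.95) and 0. It ranked 6 by FPKM in the small intestine, and its share of all gene reads was 1.03%. Pepsin A exceeded gastricsin 9.99 times in the small intestine on the FPKM scale.

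A pair of further genes were annotated as gastricsin-like and were also high in the small intestine. The gene gene26766 (NW_016606110.1, bases 132 to 5094, minus strand, 1032 bases of transcript) has pepsin B as its best Swiss-Prot entry. Pepsin B is an aspartic protease described from pig and dog stomach. This gene had 34300 reads in the small intestine, 35 in the salivary glands and 6 in the liver. Its FPKM was 4014 (3971 to 4056), 3.33 (2.32 to 4.64) and 0.39 (0.143 to 0.848) in the same order. The gene gene26479 (NW_016598177.1, bases 14 to 1482, plus strand) has gastricsin as its Swiss-Prot entry and a listed length of 332 bases, the shortest of the family. It had 8441 reads in the small intestine, 8 in the salivary glands and 3 in the liver. Its FPKM was 7953 (7784 to 8124), 6.38 (2.75 to 12.6) and 1.63 (0.335 to 4.75). These were the members with reads in the liver library, 9 in all, whereas pepsin A and gastricsin had 0 liver reads despite their higher read counts in the small intestine.

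Another gastricsin-like gene was found by the authors outside the original gene set. This gene, Manis_javanica_newGene_13211 (NW_016599288.1, bases 8 to 1638, plus strand, 1170 bases of transcript), had 96 reads in the small intestine and 0 in each of the others. Its FPKM in the small intestine was 12.5 (10.1 to 15.3), which ranked 4925. Its KEGG match had an e-value of 1.13e-18, weaker than the 5.48e-57 of gene26479 and the 6.30e-159 of gene26766. Reads of near-identical copies could be split or shared in the counting, and the values of the 3 gastricsin-like genes are uncertain to that extent.

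The genes annotated as pepsin F-like (gene4645, NW_016529888.1, bases 132881 to 141469, plus strand) and chymosin-like (gene11528, NW_016535187.1, bases 228090 to 244122, minus strand) had 0 reads in all 3 libraries. At 3 counts, the limit that a count of 0 allows, they could have reached up to 0.295 counts per 1000000 (CPM) for small intestine, 0.361 for salivary glands and 0.206 for liver. RNA of both genes was thus not detectable at this depth, and their levels at younger ages were not measured.

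**Figure D1:**
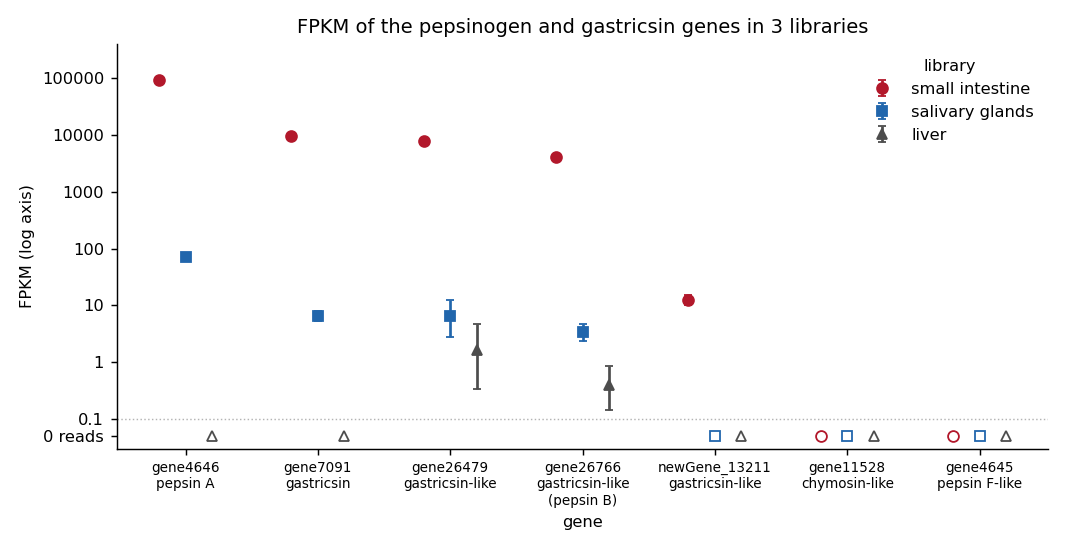
FPKM (log axis) of the 7 family genes in the 3 libraries, with bars for the 95% Poisson interval of the reads and open symbols for 0 reads. In 4 genes the small intestine value lies between 4014 and 94138 while the salivary gland value lies between 3.33 and 71.7, and a pair of genes have 0 reads throughout.

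An FPKM of 1 was exceeded by 5 of the 7 members in the small intestine, 4 in the salivary glands and 1 in the liver, beside 59.4%, 56.3% and 57% of all genes.

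The comparison between tissues was made on counts scaled by the trimmed mean of M values (TMM), and a gene was called higher when it was past 2-fold. A gene entered a comparison with 10 reads in either library. The 5 members with reads were all higher in the small intestine than in the salivary glands, where 20.6% of the 16519 genes compared were higher and 16.9% lower. Of these 5, 3 had 10 reads in both libraries and 2 in the small intestine alone. The same 5 were higher in the small intestine than in the liver, where 24.2% of 17399 genes were higher and 23.9% lower. Between salivary glands and liver, 3 members entered and were higher in the salivary glands, where 22.9% of 17162 genes were higher and 24.9% lower. No member had more than 6 reads in the liver, so every member that entered a comparison with the liver did so through the other library, and the direction of those calls was fixed by the filter. The 2 genes without reads could not be compared.

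Summed over the family, small intestine had 1152807 reads, salivary glands 1083 and liver 9. These were 11.3%, 0.013% and 6.18e-05% of all gene reads in the same order. The scaled ratio of the small intestine to the salivary glands was 1197 (95% exact interval 1128 to 1271). For pepsin A it was 1191 (1118 to 1271) and for gastricsin 1289 (1050 to 1601). For gene26766 it was 1102 (792 to 1582) and for gene26479 1186 (602 to 2749). The intervals of the 4 genes overlap one another. For Manis_javanica_newGene_13211 the small intestine was at least 36-fold higher, against a floor of 3 reads in the salivary glands.

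Against the liver the bounds differed with the number of reads available. Pepsin A was at least 567442-fold higher in the small intestine, gastricsin at least 58869-fold and Manis_javanica_newGene_13211 at least 54.2-fold, each against a floor of 3 reads in the liver library. The ratio was 9677 (4446 to 26371) for gene26766 and 4763 (1629 to 23100) for gene26479. Both intervals lie below the bounds for pepsin A and gastricsin. Between the salivary glands and the liver, pepsin A was at least 476-fold higher, gastricsin at least 45.7-fold and gene26766 8.78-fold (3.66 to 25.5). With 8 reads against 3, the ratio of gene26479 was 4.02 and its interval, 0.964 to 23.5, included equality.

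The members kept nearly the same proportions in the small intestine and the salivary glands. Pepsin A was 87.2% of the family's reads in the small intestine (95% Wilson interval 87.2% to 87.3%) and 87.6% in the salivary glands (85.5% to 89.5%). Gastricsin was 9.05% and 8.4% (6.89% to 10.2% in the salivary glands). The share of gene26766 was 2.98% and 3.23% (2.33% to 4.46%), and that of gene26479 was 0.732% and 0.739% (0.375% to 1.45%). Every small intestine share of these 4 genes lies inside the salivary gland interval. On the 9 reads of the liver library the makeup was different, with 6 reads of gene26766, 3 of gene26479 and 0 of pepsin A. The liver interval for pepsin A extends to 29.9%.

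**Figure D2:**
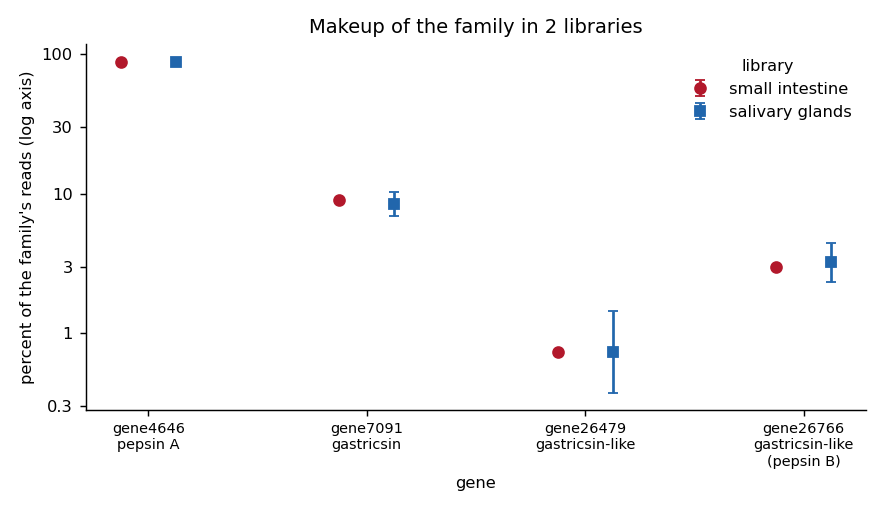
Share of the family's reads (log axis) taken by each of 4 genes in the small intestine and salivary gland libraries, with 95% Wilson intervals. Pepsin A takes 87.2% and 87.6%, and for each gene the small intestine point falls within the salivary gland bar.

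Expressed the other way, the salivary gland level of the 4 main members was between 0.0776% and 0.0908% of their small intestine level on TMM-scaled counts. The same figure was computed for 48 other genes with at least 1000 reads in the small intestine and at most 10 in the liver, a set chosen after the data were seen. Their median was 0.259%, with quartiles of 0.0937% and 5.68%, and 29 of the 48 were below 0.5%. In 23 of the 48 the counting interval overlapped the range of the family. Among these 23 were the most abundant gene of the small intestine library, BPIFB1 (an airway and gut secretory protein), at 0.0924% and ATP4A (the catalytic subunit of the acid pump) at 0.0942%. Some of the 23 intervals rest on few reads and are wide. For TFF1, a mucous cell peptide with 1 salivary gland read, the interval was 0.000907% to 0.2%. ATP4B, the other subunit of the acid pump, was at 0.211%, with an interval of 0.109% to 0.369% that lies above the family range. CHIA (acidic chitinase, which degrades the chitin of insect cuticle) was at 0.101%, and its interval of 0.0935% to 0.109% also lies above the family range. In 18 of the 48 the figure was at least 1%. BPIFB1, ATP4A and CHIA, like pepsin A, had 0 liver reads, but few liver reads were a condition of the set. Whether the family's reads in the salivary gland library came from its own cells was not tested.

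**Figure D3:**
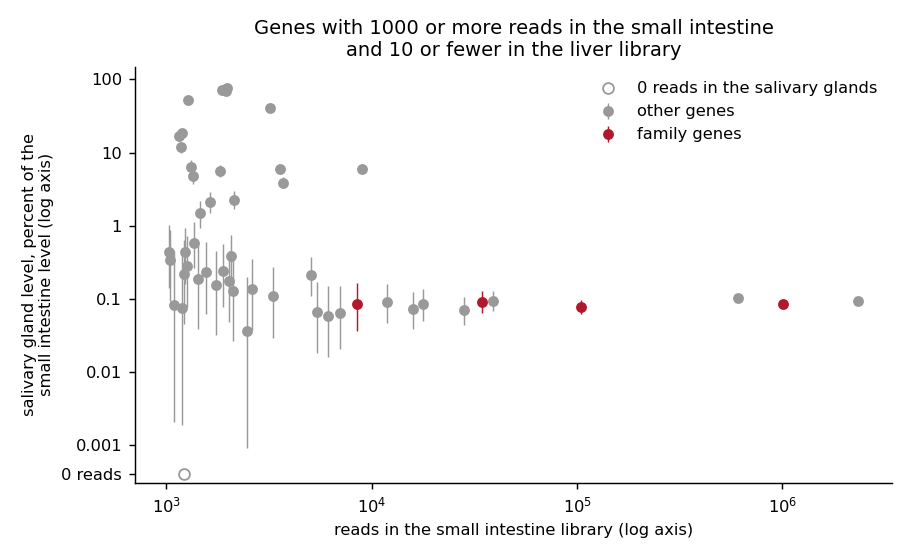
Salivary gland level as a percent of the small intestine level (log axis) against reads in the small intestine library (log axis), for the 4 family genes and the other genes with 1000 or more reads in the small intestine and 10 or fewer in the liver, with 95% exact intervals. The family lies between 0.0776% and 0.0908%, the open circle is a gene with 0 salivary gland reads, and 1 gene above 100% is not drawn.

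Length entered the FPKM in a way that changes the order of the gastricsin-like genes. In the small intestine library, 1000 reads corresponded to an FPKM of 93.6 for pepsin A, 90.4 for gastricsin and 117 for gene26766. For gene26479, with 332 bases, they corresponded to 942. That is 10.1 times the value of pepsin A, while the listed lengths differ 4.13 times. The 10 other genes of 300 to 370 bases with at least 100 reads in this library had between 591 and 1093 FPKM per 1000 reads, so gene26479 lies within their range. By FPKM, gene26479 reached 0.844 of the level of gastricsin and gene26766 reached 0.426. By reads per kilobase of listed length, gene26766 came first at 0.441 of gastricsin, and gene26479 followed at 0.337. Pepsin A and gastricsin were first and next on both scales.

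**Figure D4:**
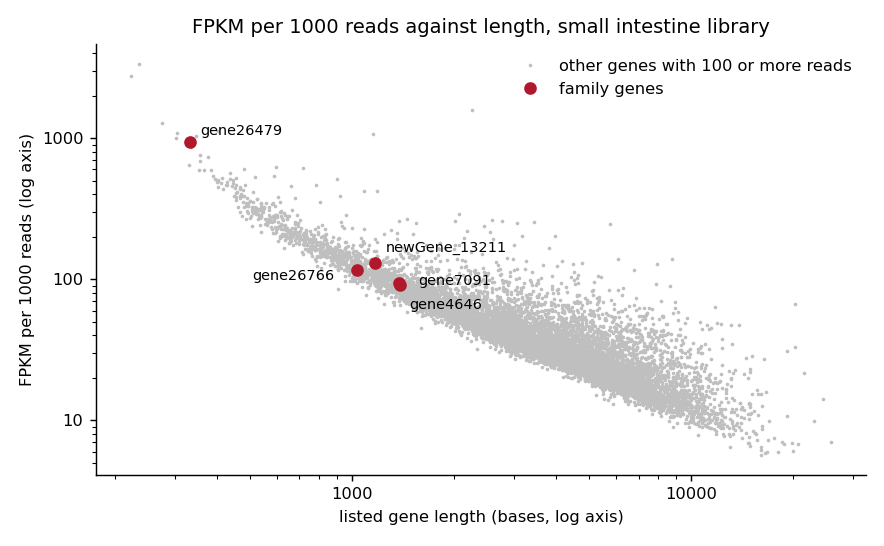
FPKM per 1000 reads (log axis) against listed gene length (log axis) in the small intestine library, for the family genes and other genes with at least 100 reads. The point of gene26479, at 332 bases and 942 FPKM per 1000 reads, lies on the steep left arm that short genes share.

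The 7 genes lie on 6 scaffolds. Pepsin A and the pepsin F-like gene share a scaffold and a strand and are neighbours, with 15566 bases between them. The lengths of the genes are similar, at 8841 and 8589 bases, but their levels stood at opposite ends, with 1005640 and 0 reads in the small intestine. Upstream of them lie Manis_javanica_newGene_1680, which has no named match, with 1 read in the small intestine, and VPS37C (endosomal sorting) with an FPKM of 10.6 for small intestine, 14.3 for salivary glands and 8.81 for liver. On the other side, gene4647, named as von Willebrand factor C and EGF domain-containing protein (VWCE), begins 6969 bases beyond pepsin A on the opposite strand. It had 652 reads in the small intestine, 3 in the salivary glands and 1 in the liver, with an FPKM of 21.8, 0.0857 and 0.0193. DDB1 (a DNA damage-binding protein), the next gene, was at an FPKM of 35.9, 39.7 and 34.7 and so differed little between the libraries on this scale. The 21 other genes of this scaffold reached at most an FPKM of 106 for small intestine.

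**Figure D5:**
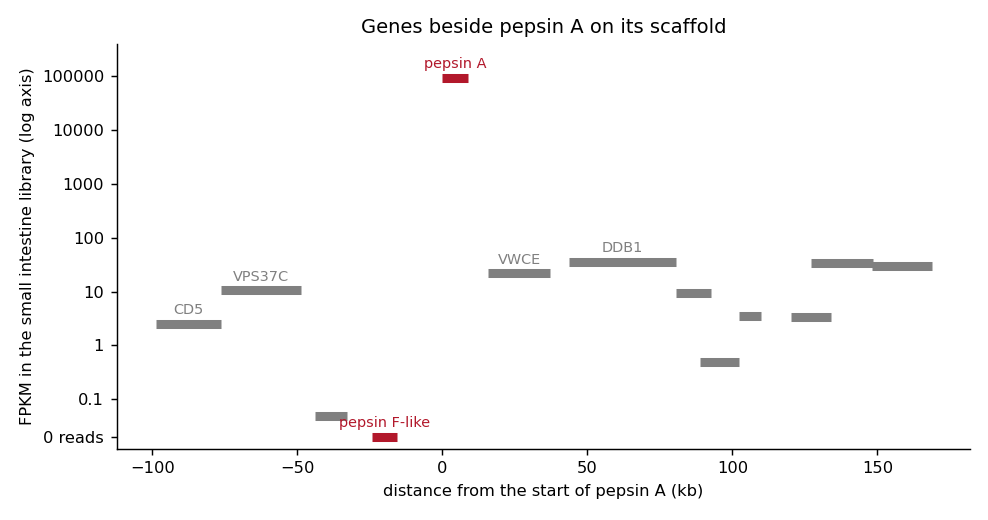
FPKM in the small intestine library (log axis) of pepsin A and nearby genes, each drawn as a bar from its start to its end against the distance in kilobases from the start of pepsin A. Pepsin A stands at 94138, the pepsin F-like gene beside it at 0 reads, and VWCE on the other side at 21.8.

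Gastricsin lies 1502 bases before TFEB, a transcription factor of lysosome genes (gene7092, named from its NR entry), and 18649 bases after FRS3, an adaptor of growth factor receptors (gene7090). TFEB was at an FPKM of 11.7 for small intestine, 5.04 for salivary glands and 4.27 for liver, and FRS3 had 1.19, 1.13 and 1.13. The next gene, gene7093 (a MyoD family inhibitor), had 5.67, 2.91 and 0. The chymosin-like gene lies between KCNA10, a potassium channel (gene11527, with 0 reads in the small intestine), and LAMTOR5, of the lysosomal Ragulator complex (gene11529, with an FPKM of 38.9 for small intestine). Farther out on this scaffold were KCNA2, a potassium channel (gene11526), with 0 reads in the small intestine, and a monocarboxylate transporter (gene11530) with an FPKM of 0.232. In the RefSeq assembly of this species, used only for the order of genes, VPS37C and VWCE also flank 2 adjacent protein-coding genes. Genes of long noncoding RNA lie between these and VPS37C. In the same assembly, PGC also lies between FRS3 and TFEB, and 1 protein-coding gene lies between KCNA10 and LAMTOR5. The 3 gastricsin-like genes were each alone on a scaffold, and they began 14, 132 and 8 bases from its first base. Their neighbours could therefore not be read from these scaffolds.

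The genes nearest in pattern were found by the distance between log10 (FPKM + 1) values over the 3 libraries, which is a description over 3 points that share libraries and depth. Nearest to pepsin A was BPIFB1 (distance 0.31), with an FPKM of 136163 for small intestine, 133 for salivary glands and 0 for liver. CHIA followed (0.42), with 43108, 40 and 0, and the remaining 3 were family genes. Nearest to gastricsin were gene26479 (0.43) and gene26766 (0.46), followed by lysozyme C (0.54) and the mucosal peptide TFF2 (0.63). Lysozyme C, a bacterial cell wall hydrolase (gene22777), was also nearest to gene26766 (0.12), with an FPKM of 3582, 2.54 and 0.198. TFF2 came next for this gene (0.19), with 3223, 2.03 and 0.503, and the acid pump subunit ATP4A was the last of its 5 (0.69). For gene26479 the list ended with desmin, a muscle filament protein (1.09). For Manis_javanica_newGene_13211, whose level was low, the nearest were a filaggrin-like new gene and VIP (a gut neuropeptide), both at 0.02. These were followed by genes named PTPRN2, a C5orf46 homolog and an arf-GAP protein, of which PTPRN2 had 10 reads and the arf-GAP protein 3.

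Other genes of acid digestion were taken from lists. From the list of acid secretion by parietal cells, 10 of 15 genes exceeded an FPKM of 1 for small intestine, 6 for salivary glands and 1 for liver, with a median FPKM of 12.3, 0.277 and 0.0123 beside 2.16, 1.76 and 1.89 over all genes. Against the salivary glands, 10 of 11 with enough reads were higher in the small intestine and 1 was lower. The gene that was lower, a sodium borate transporter (gene1080), shares the symbol of the listed SLC4A2 and was picked out with its values known. Of all genes compared, 20.6% were higher and 16.9% lower. Against the liver, 10 of 11 were higher, beside 24.2% of all genes. Matched by product name, 12 of 12 were higher than in the salivary glands and 11 of 12 than in the liver. Several of these, such as ATP4A and ATP4B with 0 liver reads, had under 10 reads in the other library. For them the direction of the call was fixed by the filter. ATP4A was at an FPKM of 1073, 0.941 and 0, and ATP4B (the other subunit of the pump) had 652, 1.27 and 0. Pepsin A thus exceeded ATP4A 87.7 times and ATP4B 144 times in the small intestine on the FPKM scale. From the list of gastric mucus and surface cells, 5 of 5 genes were higher in the small intestine in both comparisons, with TFF2 and TFF1 (a surface mucous cell peptide, FPKM of 1148, 0.357 and 0) as the highest. None of the 5 reached 10 reads in the liver, and only TFF2, with 13, did so in the salivary glands. The direction of all the other calls was thus fixed by the filter.

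The other products of chief cells ranged widely. From that list, 3 of 7 genes exceeded an FPKM of 1 for small intestine. Of 3 with enough reads, 2 were higher there than in the salivary glands and 1 was lower. The 7 include genes that share a symbol with a listed product. Of the 2 that were higher, 1 was such a gene, chitotriosidase-1 (gene13097), picked out with its values known. Matched by product name, 2 of 4 exceeded an FPKM of 1. Of 2 with enough reads, 1 was higher and 1 lower than in the salivary glands. CHIA was the highest, and pepsin A exceeded it 2.18 times. BHLHA15 (a transcription factor of secretory cells) was at an FPKM of 24.5 for small intestine, 95.9 for salivary glands and 64.8 for liver. Gastric lipase (gene6272) was at an FPKM of 0.539 for small intestine and gastric intrinsic factor (gene23731) 0.872, and both had 0 in the salivary glands and the liver. Both were singled out with their values known.

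From the list of control of gastric secretion, 7 of 18 genes exceeded an FPKM of 1 for small intestine. Of 10 with enough reads, 7 were higher in the small intestine than in the salivary glands and 2 lower, and of 9, 5 were higher than in the liver and 3 lower. The appetite hormone ghrelin (GHRL) was at an FPKM of 17.1, 2.01 and 0.901, and a gene of histidine decarboxylase (HDC, gene25905), which makes histamine, had 16.9, 0.278 and 21.6. Gastrin, the hormone that stimulates acid release, had 0 in all 3 libraries and was singled out with its values known.

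In the small intestine library, the listed genes of enzymes that act on protein after the stomach were at a lower FPKM than the 4 main members of the family. The pancreas, which makes the pancreatic proteases, was not sequenced. The values therefore give RNA in this library and not the amount of these enzymes in the gut. From the list of pancreatic proteases, 5 of 10 genes exceeded an FPKM of 1 for small intestine, with carboxypeptidase A2 (22.7) and chymotrypsin-C (5.71) as the highest, and 4 of 5 with enough reads were higher there than in either other library. Matched by product name, 4 of 6 were higher and 1 was lower in the small intestine than in the liver. The gene that was lower, a cationic trypsin-3-like gene (gene10941) picked out with its values known, was at 0.122 in the small intestine, 0 in the salivary glands and 77.3 in the liver. From the list of brush border and intestinal peptidases, 7 of 24 genes exceeded this level, and the highest were genes that share a symbol with the listed enzyme, a transmembrane protease serine 2 at 41.7 and an aminopeptidase O at 19.7. Against the salivary glands, 5 of 13 were higher in the small intestine and 2 lower, and against the liver 4 of 14 were higher and 5 lower. Matched by product name, 2 of 14 exceeded an FPKM of 1, 4 of 8 were higher and 3 lower than in the salivary glands, and 1 of 9 was higher and 6 lower than in the liver.

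Aspartic proteases outside the family work mainly in lysosomes, endosomes or plasma. Cathepsin D (CTSD), the main aspartic protease of lysosomes, was at an FPKM of 212 for small intestine, 157 for salivary glands and 365 for liver, and was lower in the small intestine than in the liver past 2-fold on TMM-scaled counts. Cathepsin E (CTSE), an endosomal enzyme known from gastric surface cells, had 5.15, 0 and 0 and was called higher in the small intestine in both comparisons. With 103 reads there and 0 in each of the others, the direction of its calls was fixed by the filter. The beta-secretases BACE1 (gene13465) and BACE2 (gene8893) had 9.41 and 8.51 in the small intestine, napsin-A (gene9692) had 0.193, and renin (gene3959) was at 0 in all 3 libraries. Of the 5 with enough reads, 2 were higher and 1 lower in the small intestine than in the salivary glands, and 1 was higher and 2 lower than in the liver. These counts include cathepsin E and napsin-A. Napsin-A was called lower in both comparisons with 3 reads in the small intestine, so its direction was fixed by the filter too. Of all genes, 20.6% were higher and 16.9% lower against the salivary glands, and 24.2% and 23.9% against the liver. Over the 30 genes with the GO term for aspartic-type endopeptidase activity, which include all 7 members, the family held 99.6% of the summed FPKM in the small intestine, 24% in the salivary glands and 0.353% in the liver. Outside the family, 15 of the 23 genes with this term exceeded an FPKM of 1 for small intestine, 14 for salivary glands and 13 for liver.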

How the data were processed

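Total RNA of 3 tissues of 1 animal was sequenced in pairs after poly-A selection. The authors aligned clean reads with TopHat2 and used Cufflinks to assemble new genes from reads outside the known ones. The deposited read count per gene was not scaled between libraries, and the tool behind that column is not given in the sources used here, although the paper names RSEM for the FPKM used to compare tissues. For FPKM, the paper gives the fragments of a gene divided by its length and by the mapped fragments, which the deposited column does not follow exactly. A score deposited by the authors, the count times a factor per library, was not used further. Positions are as deposited, and the build of the NW scaffolds is not named. Columns of other deposited kinds, such as length, strand and annotation text, were taken as the authors gave them.

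Family genes were found by their NR entry. The members and lists were chosen with earlier results of these data known. Genes named are the family, its neighbours (the nearest 2 on each side), the 5 genes nearest in pattern, the 2 highest genes of each list and all listed aspartic proteases outside the family. Exceptions are stated where they occur. Lists were matched by the symbol in the Swiss-Prot or KEGG entry, which can stand for a paralog, and also by product name. RefSeq names and gene order come from assembly MJ_LKY.

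Counts were scaled by TMM (edgeR 4.0.16, R 4.3.3) and compared in Python 3.11.15 (pandas 2.3.3, numpy 2.4.6, scipy 1.17.1, matplotlib 3.10.9). A gene needed 10 reads in 1 of the libraries compared, counts under 3 were set at 3, and a gene past 2-fold was called. With 1 library per tissue no test was made. The depth limited a count of 0 at 3 reads per library. Intervals are at 95% (Poisson for a level, Wilson for a share, exact Clopper-Pearson for a ratio) and do not cover variation between animals. The calling step was tested on simulated data with a higher read minimum than the 10 used here and with genes raised well past 2-fold. Calls at low counts were not covered by it. Alternatives were library size, DESeq2 1.42.0 size factors, library size without the 10 most abundant genes, the FPKM ratio, a 4-fold limit, no filter on low counts, a floor of 1 read, shares of FPKM, ranks by count, members by other database entries, a pseudocount of 0.1 and FPKM thresholds of 0.5 and 5. Counts per kilobase, product names, the set of other small intestine genes and the GO term were added after the data were seen.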

Additional observations from a re-analysis of the deposited data

How the results depend on the processing

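The numbers of family genes called between tissues stayed within 1.5 times under every scaling, fold, filter and floor tried. The small intestine ratios were at least 36-fold, so neither the 4-fold limit nor the scalings tried could have changed those calls. Without the filter on low counts, 4 rather than 3 members were higher in the salivary glands than in the liver, gene26479 being the added one. The small intestine to salivary gland ratio of the family sum, 1197, was 872 by library size only and 1314 by FPKM. By FPKM, the family ratio to the liver was 57318 for the small intestine, against 216828 by counts, and 43.6 for the salivary glands, against 181, since the short gene26479 holds most of the liver FPKM. By FPKM, pepsin A was 81.5% of the family (small intestine) and 81.6% (salivary glands), and by counts per kilobase 84.5% and 84.8%. By TrEMBL entries 3 genes were found, because of the other 4 genes, 3 have the entry of an uncharacterized protein and 1 has none. The Swiss-Prot and KEGG entries gave the same 7. With a pseudocount of 0.1, 22 of the 25 nearest genes were shared. No ratio turned its direction, and with ratios this far from equality the scalings tried could not have turned one. Of 30 counts of list genes above an FPKM of 1, 5 moved by over 1.5 times at a threshold of 0.5, 17 at 5 and 8 when matched by product name. At 5, control of gastric secretion (small intestine) went from 7 genes to 3 and acid secretion (salivary glands) from 6 to 2. For gene26479, the rank in the small intestine was 8 by FPKM, 54 by count and 11 by counts per kilobase. No paired analysis was possible because each tissue has 1 library and no result comes from a test. Depth limits the liver values, which rest on 9 reads, and 1 animal gives no measure of biological variation.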
